A study of Danio rerio with 6 samples.

Results

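Ephrins are membrane-bound ligands, and Eph receptors are the receptor tyrosine kinases that bind them on a neighbouring cell. In the raw count table of sorted zebrafish caudal fin cells, gene symbols of the forms efna or efnb and epha or ephb followed by a digit gave 31 genes of 30841. They comprised 12 ligands (7 ephrin-A and 5 ephrin-B genes) and 19 receptors (10 EphA and 9 EphB genes). For each gene the transcript row with the most reads over the 6 libraries was kept. The cells were taken from adult fins 14 days after amputation, with 2 libraries in each of 3 groups. CMP stands for chondrogenic and OMP for osteogenic mesenchymal progenitors, names that the sample titles do not spell out. By these titles, CMP were EGFP-positive and sp7-negative, OMP were EGFP-positive and sp7-positive, and osteoblasts were EGFP-negative and sp7-positive. All 3 groups came from fish of a Tubingen-derived strain with the same transgenes, namely a Cre-ERt2 driven by sox9a, EGFP driven by cryaa, an Ola.Actb construct in which recombination replaces TagBFP by EGFP, and mCherry under Ola.Sp7. EGFP therefore marks cells with a history of Cre activity in sox9a-expressing cells, and mCherry marks cells in which the sp7 construct is active. Cre-ERt2 acts only after an inducer such as tamoxifen, whose timing is not stated in the labels. The series asked how fin mesenchyme and osteoblasts are related by lineage.

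Ephrin-A ligands are held to the membrane by a lipid anchor and mainly bind EphA receptors, while ephrin-B ligands span the membrane, end in a PDZ-binding motif inside the cell and mainly bind EphB receptors. EphA4 also binds ephrin-B ligands, so the separation is not strict. Contact between ligand and receptor signals into both cells and often makes them withdraw from each other, and in zebrafish embryos this keeps somite and hindbrain boundaries sharp. In mouse bone, ephrin-B2 and EphB4 have been studied as a signal between osteoclasts and osteoblasts, and in humans loss of ephrin-B1 disturbs the skull sutures.

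With 1 row kept per gene the libraries held 3915569 to 5281896 reads, of which the ephrin and Eph genes took 2451 to 3764 reads per library (0.0483% to 0.0889%). The osteoblast libraries held 161 and 175 CPM of sp7, against 10.4 and 8.45 in OMP and 1.99 and 2.18 in CMP (CPM, reads scaled to library size with TMM factors). Reads of mCherry stood at 803 and 1864 CPM in osteoblasts but at 1.64 and 9.88 in OMP and 0.662 and 7.86 in CMP. EGFP stood at 796 and 950 CPM in osteoblasts, 882 and 1115 in OMP and 868 and 803 in CMP, so the reporter reads of the libraries labelled OMP and osteoblast went against the sort stated in their titles. The sample descriptions call the CMP libraries Mes-G, those of OMP Ob-G and those of osteoblasts Ob-GR, with a 2 added in replicate 2. If G and R stand for green and red, these names match the reporter reads and not the titles. Group names are used as given in the titles. The labels do not state that replicates came from separate fish, and p-values then measure only the spread between these libraries, which may be technical. A share of 7.17% to 19.1% of reads came from 8 heat shock genes, with the 3 highest shares in the libraries numbered 1. The ephrin and Eph genes moved with the same number, since 17 of the 25 members tested (68%) were higher in replicate 1 than in replicate 2 in all 3 groups, against 24.1% of all genes tested. The part of cell stress in the values was not tested.

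Of the 31 genes, 25 passed the filter on low counts, 11 ligands and 14 receptors. In osteoblasts against CMP 42.9% of receptors (57.1% of EphA and 28.6% of EphB) and 9.09% of ligands were called, beside 10.6% of all genes. In osteoblasts against OMP the shares were 7.14% and 9.09%, beside 8.11%. In OMP against CMP they were 14.3% and 0%, beside 1.89%. Osteoblasts held more epha3, epha4a, epha4b, epha7 and efnb2a RNA than CMP and less ephb1 and ephb3a. OMP also held more epha4b and epha7 than CMP. Between osteoblasts and OMP, efnb1 was higher and ephb1 lower in osteoblasts. None of the ephrin-A genes was called in any comparison by DESeq2 or by the edgeR fit with group as its only term, in which none had an unadjusted p under 0.05. These are bulk libraries, in which fewer cells that express a gene and less RNA per cell cannot be told apart.

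Genes count as called where edgeR's quasi-likelihood test gave a p under 0.05 after Benjamini-Hochberg adjustment over the 13399 genes tested. In OMP against CMP, 2 of 25 members were called (8%), both higher, where 1.89% of all genes were called (0.955% higher and 0.933% lower). In osteoblasts against OMP, 2 of 25 were called (8%), 1 in each direction, where 8.11% of all genes were called (3.22% higher and 4.9% lower), so this share was that of genes in general. In osteoblasts against CMP, 7 of 25 were called (28%), 5 higher and 2 lower, where 10.6% of all genes were called (4.55% higher and 6.08% lower). The median log2 change of the 25 members was -0.21, 0.08 and 0.09 in these comparisons, beside 0.02, -0.03 and -0.02 over all genes. The 3 comparisons share libraries and are not independent of each other. Groups whose libraries do not overlap were common in general. Between OMP and CMP they were found for 6 members higher and 4 lower in OMP (18.5% and 17.6% of all genes). In osteoblasts they were found for 6 higher and 2 lower against OMP (20.1% and 22.8%) and for 8 higher and 4 lower against CMP (22.2% and 25.7%). These counts also depend on an option of the test that was chosen after calls with and without it had been seen. With the older dispersion estimate, the default of the edgeR version used, 2, 1 and 5 members were called in place of 2, 2 and 7. Of all genes, 1.41%, 7.34% and 9.55% were called with that estimate. The calls of efnb1, efnb2a and epha4a below are those that this option adds. Single libraries moved the counts as well. The calls over all genes fell too in each fit without a library of a compared group. Fewer member calls in those fits are therefore not particular to the members. In OMP against CMP, 0 were called without CMP library 1, CMP library 2 or OMP library 1 and 1 without OMP library 2. In osteoblasts against CMP, 3, 2 and 3 were called without CMP library 1, CMP library 2 and osteoblast library 1. In osteoblasts against OMP, 4 were called without OMP library 1 and 1 without any other library.

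**Figure D1:**
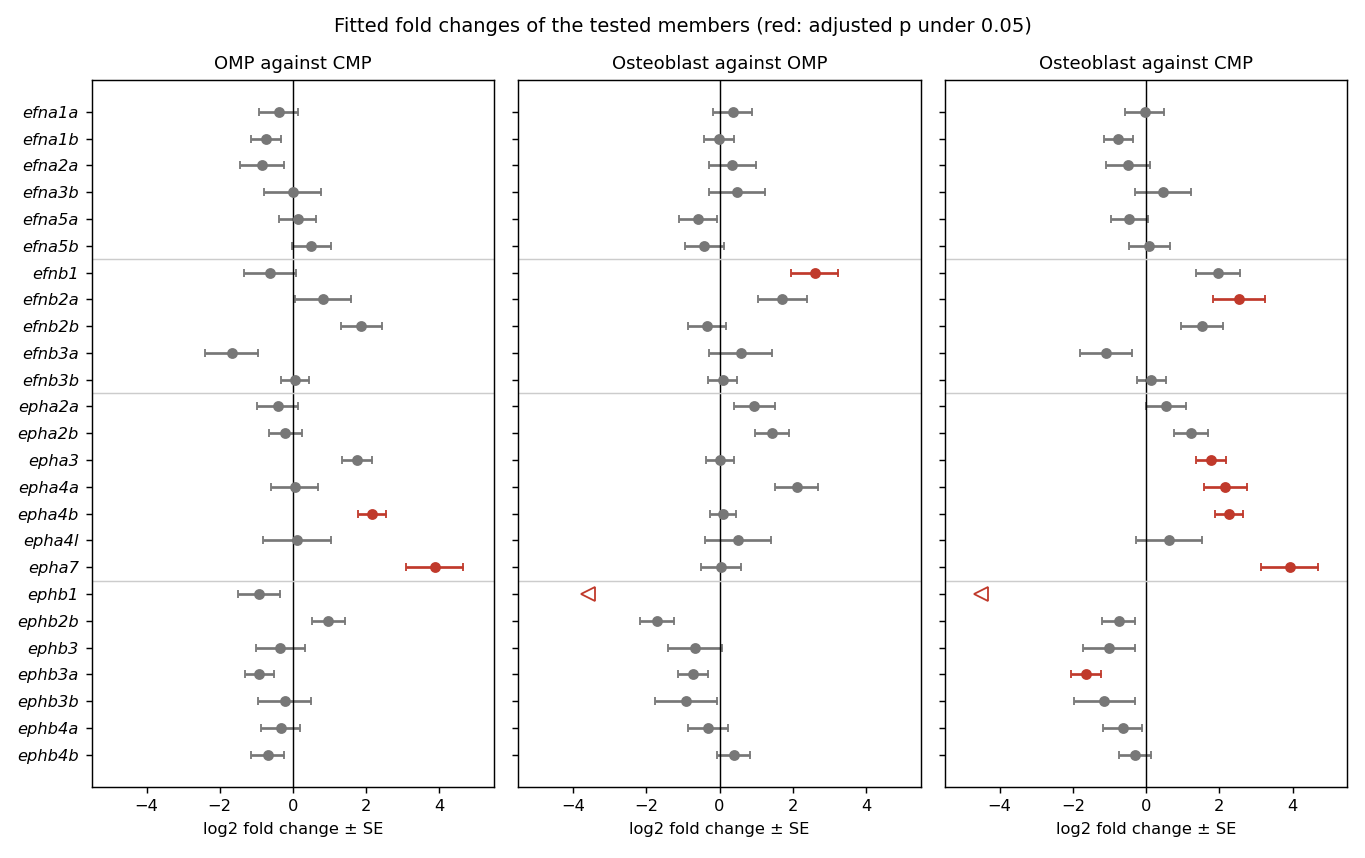
Log2 fold change with its SE (edgeR) of the 25 tested members in the 3 comparisons, with grey lines between ephrin-A, ephrin-B, EphA and EphB genes. Red symbols passed the adjusted threshold. Open triangles give ephb1 with 3 reads set for the osteoblast group, where it had 0 reads, and leave out counting error in the other group. The red points to the right are EphA and ephrin-B genes, and those to the left are ephb1 and ephb3a.

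Levels of different genes were compared as CPM per kilobase of transcript. The deposited lengths ran from 900 bases (efna5b) to 8280 (ephb2b), with efnb1, efnb2a, efnb2b and efnb3b at 996 to 1026. Orders of genes and class sums depend on these lengths, and whether each covers the whole transcript was not tested. On that scale efna1b, a ligand of the ephrin-A1 type that is best known as a partner of EphA2, had the highest mean level of the family in each group, at 111 CPM per kilobase ± 2.53 in CMP, then 66.5 ± 35.2 in OMP, then 65.9 ± 24.8 in osteoblasts (SD, n = 2). In every library it stood above every other member. In CMP it was followed by efna1a (20.4), ephb4b (19.9), efnb3b (18.2) and ephb4a (14.5), whose library values overlap. In OMP efnb3b (19.0), efnb2b (16.4), efna1a (15.7) and epha3 (14.7) came next, again with overlapping values. In osteoblasts the next were epha2b (24.0), efna1a (20), efnb3b (19.9) and efnb2a (19.8), which also overlap.

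**Figure D2:**
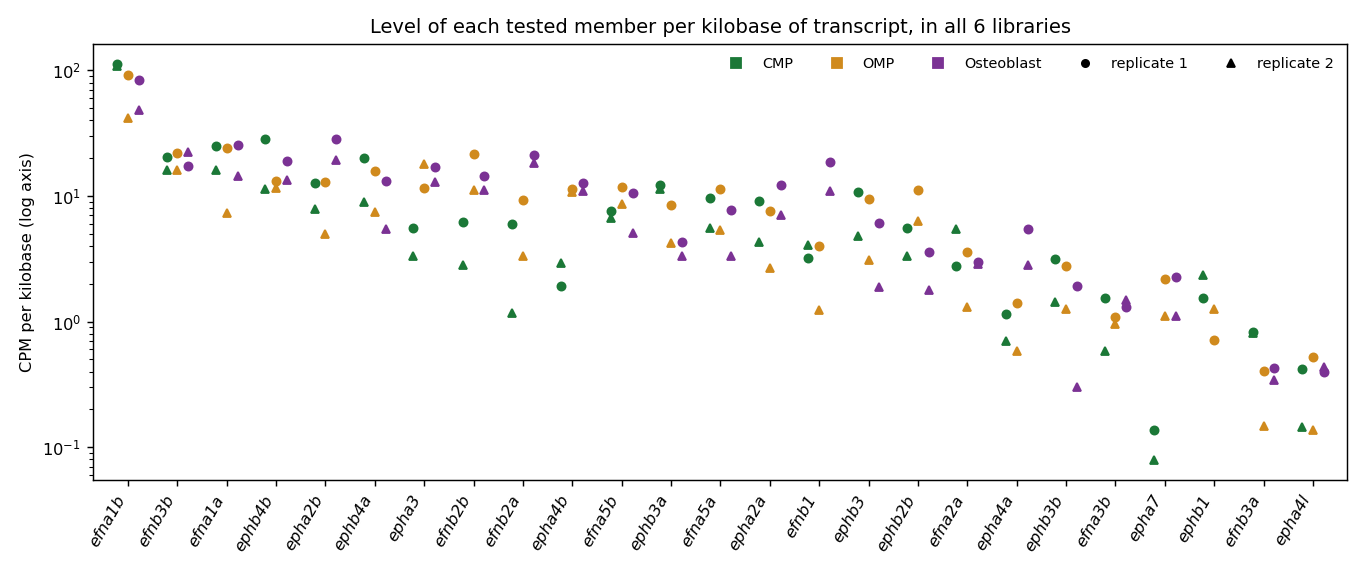
Level of each tested member as CPM per kilobase of its transcript (log axis), ordered by the mean over groups, with 1 symbol per library (circles replicate 1, triangles replicate 2). The 2 osteoblast libraries had 0 reads of ephb1 and have no symbol there; efna1b lies above all other members in every library, and epha7 is lowest in the 2 CMP libraries.

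Among ephrin-A ligands, efna1b stood at 203 and 197 CPM in CMP, then 165 and 75.1 in OMP, then 151 and 87.3 in osteoblasts. Both CMP libraries lay above the other 4, but the spread within OMP and osteoblasts was wide. The log2 change was -0.74 in OMP (SE 0.40, edgeR adjusted p = 0.614) and -0.75 in osteoblasts against CMP (SE 0.41, edgeR adjusted p = 0.349). Efna1a and efna5a, the latter of a type known for guiding axons in the visual system, were measured with 1274 and 1018 reads in all and overlapped between all groups. Efna2a, efna3b and efna5b had 62 to 204 reads in all, and no fitted difference of any tested ephrin-A gene was beyond 0.86 on the log2 scale in either direction. Efna3a had 2 reads, both in CMP library 2, and was not tested.

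Among ephrin-B ligands, efnb1, efnb2a and efnb2b had the fitted differences furthest above 0. Efnb1 stood at 3.31 and 4.18 CPM in CMP, then 4.10 and 1.27 in OMP, then 19.0 and 11.2 in osteoblasts. The 2 osteoblast libraries lay above the other 4. Osteoblasts held more efnb1 than OMP did (log2 change 2.60 with SE 0.64, edgeR adjusted p = 0.0351), with 107 against 23 reads. The change was 3.56 without OMP library 1 and 1.85 without OMP library 2. This call was lost with the older dispersion estimate of edgeR (adjusted p = 0.0588), with only the 4 libraries of these groups (0.0567) and with all transcript rows of a gene summed (0.0600). It was also lost without CMP library 1 (0.0587), CMP library 2 (0.0546), OMP library 2 (0.246) or osteoblast library 1 (0.166). Against CMP the difference of efnb1 was 1.97 (SE 0.60, edgeR adjusted p = 0.0670), and it was called without OMP library 1 (0.0464) or OMP library 2 (0.0402), with only the 4 libraries of these groups (0.0433) and with no filter on low counts (0.0492). The table lists a further row of efnb1 under the same transcript accession, which had 1 read in all.

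Efnb2a encodes a ligand that marks arteries and posterior somite cells in zebrafish embryos, and it stood at 5.96 and 1.17 CPM in CMP, then 9.30 and 3.35 in OMP, then 21.3 and 18.3 in osteoblasts. Osteoblasts lay above both other groups, which overlapped each other. It was higher in osteoblasts than in CMP (log2 change 2.53 with SE 0.71, edgeR adjusted p = 0.0480), from 145 against 34 reads. The change was 4.05 without CMP library 1 and 1.73 without CMP library 2. That call was lost with the older dispersion estimate (adjusted p = 0.0810), with all transcript rows summed (0.0755) and without CMP library 2 (0.277), osteoblast library 1 (0.114) or osteoblast library 2 (0.0996). Efnb2a has 1 row in the table, so summing rows changed the fit around it and not its own counts. Against OMP the difference was 1.72 (SE 0.67, edgeR adjusted p = 0.192).

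Its duplicate efnb2b had another order of groups, with 6.18 and 2.84 CPM in CMP, then 21.6 and 11.3 in OMP, then 14.4 and 11.2 in osteoblasts. CMP lay below the other groups, which overlapped. The differences of efnb2b from CMP were 1.87 in OMP (SE 0.55, edgeR adjusted p = 0.158) and 1.53 in osteoblasts (SE 0.57, edgeR adjusted p = 0.144) and were not called. The ratio of efnb2b to efnb2a, per kilobase, was 1.03 and 2.41 in CMP, then 2.31 and 3.36 in OMP, then 0.673 and 0.609 in osteoblasts. Efnb2b was thus above efnb2a in both OMP libraries and below it in both osteoblast libraries. In CMP the duplicates were near equal in library 1 (28 against 27 reads) and had 17 against 7 reads in library 2. The difference between them was not tested.

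Efnb3b was the ephrin-B gene with the highest mean level over groups and was even across them, at 20.3 and 15.9 CPM in CMP, then 21.9 and 15.9 in OMP, then 17.3 and 22.2 in osteoblasts. All groups overlapped, and its fitted differences ran from 0.06 to 0.14 on the log2 scale (SE 0.39 to 0.40). Efnb3a had 46 reads in CMP, 13 in OMP and 15 in osteoblasts, and CMP lay above both other groups. Its differences of -1.68 in OMP (SE 0.72, edgeR adjusted p = 0.434) and -1.10 in osteoblasts (SE 0.71, edgeR adjusted p = 0.460) were not called.

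**Figure D3:**
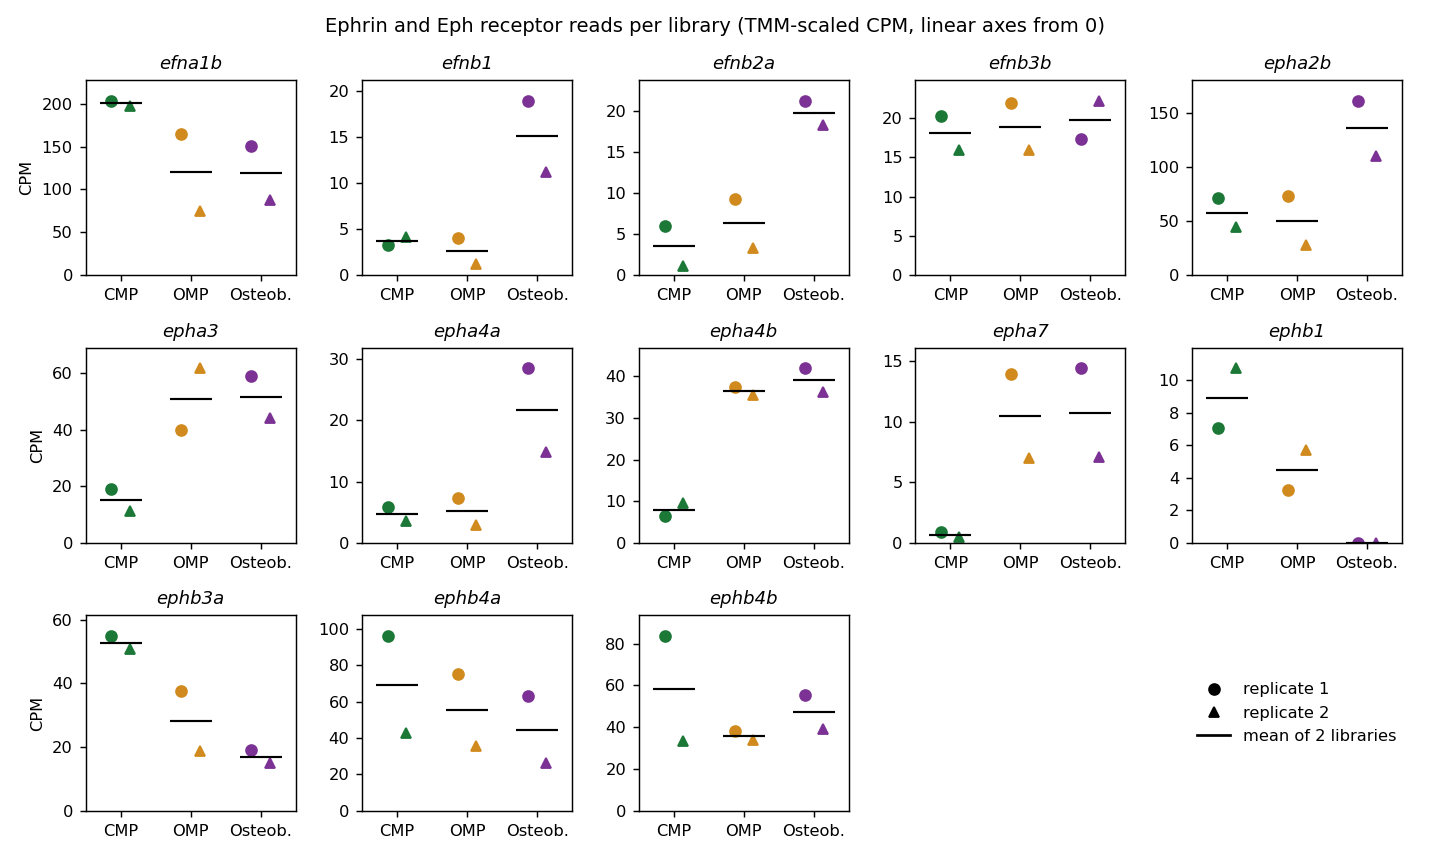
CPM of 13 members in each library, on linear axes from 0 (circles replicate 1, triangles replicate 2, lines the mean of 2 libraries). Epha4b, epha7 and epha3 are low in both CMP libraries and higher in all OMP and osteoblast libraries, whereas efnb1, efnb2a, epha4a and epha2b are highest in the 2 osteoblast libraries.

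Of the EphA receptors, epha4b, epha7 and epha3 separated CMP from both other groups. Epha4b, a duplicate of the EphA4 receptor that binds ligands of both classes, stood at 6.40 and 9.70 CPM in CMP, then 37.5 and 35.5 in OMP, then 41.9 and 36.2 in osteoblasts. The OMP and osteoblast libraries overlapped each other and lay well above CMP. Epha4b rose 4.47-fold in OMP (log2 change 2.16 with SE 0.38, edgeR adjusted p = 0.0209) and 4.78-fold in osteoblasts (2.26, SE 0.39, edgeR adjusted p = 0.00380) over CMP. Between osteoblasts and OMP it differed by 0.10 (SE 0.35, edgeR adjusted p = 0.955). In OMP epha4b lost its call without CMP library 1 (adjusted p = 0.196), CMP library 2 (0.117), OMP library 1 (0.0808) or OMP library 2 (0.0626) and with all transcript rows summed (0.0511), and the call in osteoblasts without CMP library 1 (0.0503).

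Epha7, a receptor studied in axon guidance and in somites, had 4 and 3 reads in CMP, then 51 and 44 in OMP, then 44 and 31 in osteoblasts. In CPM this was 0.883 and 0.502 in CMP, then 14.0 and 7.01 in OMP, then 14.4 and 7.10 in osteoblasts. CMP was close to the limit of detection and lay below all other libraries. Epha7 rose in OMP (log2 change 3.87 with SE 0.78, edgeR adjusted p = 0.0331) and in osteoblasts (3.92, SE 0.79, edgeR adjusted p = 0.00896) over CMP, the furthest above 0 of any member in both comparisons. The ratio of its depth-scaled reads was 14.4 with an exact 95% counting interval of 6.70 to 36.7 in OMP and 15.2 (7.01 to 39.0) in osteoblasts. In OMP epha7 lost its call without CMP library 1 (adjusted p = 0.182), CMP library 2 (0.297) or OMP library 1 (0.138), and the call in osteoblasts without CMP library 1 (0.0536) or CMP library 2 (0.102). Epha7 has 10 rows in the table, and a row listed apart from the others had 6 and 2 reads in CMP, then 27 and 28 in OMP, then 39 and 35 in osteoblasts. That row, which was not used for the test, had the same order of CMP against the other groups.

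Epha3, which in other vertebrates binds ephrin-A5, stood at 19.0 and 11.4 CPM in CMP, then 39.7 and 61.5 in OMP, then 58.9 and 44.2 in osteoblasts. Again OMP and osteoblasts overlapped and CMP lay below both. Epha3 rose in osteoblasts over CMP (log2 change 1.77 with SE 0.41, edgeR adjusted p = 0.0196), and the call was lost without CMP library 2 (0.188) or osteoblast library 1 (0.0875). In OMP the difference from CMP was of like size (1.75, SE 0.40) but missed the threshold (edgeR adjusted p = 0.0656), while DESeq2 (adjusted p = 0.0119) and edgeR with no filter on low counts (0.0349) called it.

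Epha4a, the other EphA4 duplicate and the receptor of somite and hindbrain boundaries in zebrafish embryos, followed another order. It stood at 5.96 and 3.68 CPM in CMP, then 7.39 and 3.03 in OMP, then 28.5 and 14.9 in osteoblasts. CMP and OMP overlapped, and both osteoblast libraries lay above them. It rose in osteoblasts over CMP (log2 change 2.17 with SE 0.58, edgeR adjusted p = 0.0407), a call lost with the older dispersion estimate (0.0556) and without CMP library 1 (0.112), CMP library 2 (0.259) or osteoblast library 1 (0.217). Over OMP the difference of 2.11 (SE 0.59) had an edgeR adjusted p of 0.0566, and epha4a was called there by DESeq2 (0.0375), with no filter on low counts (0.0305) and without OMP library 1 (0.0481). Per kilobase, epha4b exceeded epha4a 1.70 and 4.16 times in CMP, then 8.01 and 18.5 times in OMP, then 2.32 and 3.84 times in osteoblasts. The ratio was highest in the 2 OMP libraries, and the difference between the duplicates was not tested.

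Epha2b, a receptor of the EphA2 type known from epithelia, had the highest mean level per kilobase of the EphA genes over groups. It stood at 71.8 and 44.2 CPM in CMP, then 73.0 and 28.2 in OMP, then 161 and 110 in osteoblasts. The osteoblast libraries lay above all others, but differences of 1.43 over OMP (SE 0.46, edgeR adjusted p = 0.103) and 1.23 over CMP (SE 0.46, edgeR adjusted p = 0.144) were not called. DESeq2 called epha2b over OMP (adjusted p = 0.0456), and so did edgeR without OMP library 1 (0.0232). The other EphA2 gene, epha2a, overlapped between all groups, at 608 reads in all, and epha4l had 50 reads and overlapped likewise. Epha5 had 3 reads, and epha6 and epha8 had 0 reads in all 6 libraries, which allows up to 0.478 to 0.982 CPM per library.

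Of the EphB receptors, none was higher in osteoblasts or OMP by the test, and ephb1 and ephb3a were lower in osteoblasts. Ephb1 had 32 and 64 reads in CMP (7.07 and 10.7 CPM), 12 and 36 in OMP (3.28 and 5.74 CPM) and 0 in both osteoblast libraries, where 3 reads would be 0.982 and 0.687 CPM. The 3 groups did not overlap. Against 3 reads over the osteoblast group, ephb1 was at least 22.6-fold lower than in CMP (edgeR adjusted p = 0.00673) and at least 12-fold lower than in OMP (edgeR adjusted p = 0.0275). Without osteoblast library 1 or 2 the folds against 3 reads were 13.3 and 9.31 for CMP and 7.03 and 4.92 for OMP. The call against CMP held under all 13 alternatives (adjusted p 2.27e-04 to 0.0448). The call against OMP was lost without OMP library 2 (adjusted p = 0.140), osteoblast library 1 (0.0824) or osteoblast library 2 (0.164) and with all transcript rows summed (0.0695). In OMP against CMP the difference of ephb1 was -0.94 (SE 0.57, edgeR adjusted p = 0.705).

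Part of a list of mural cell markers moved the same way as ephb1. Of 9 listed mural genes, all with reads, the summed level was 754 and 832 CPM in CMP, then 514 and 440 in OMP, then 209 and 105 in osteoblasts. Of the 8 tested, 6 were called lower in osteoblasts than in CMP, among them the smooth muscle actin gene acta2 (0.573 CPM ± 0.810 against 74.2 ± 22.5, log2 change -6.75, SE 0.73, edgeR adjusted p = 1.87e-04). Pdgfrb (66.4 against 108 CPM) and cspg4 (35.8 against 33.4 CPM) were not called there (edgeR adjusted p = 0.520 and 0.953). In OMP against CMP acta2 alone was called. The 16 fin mesenchyme genes, 12 of them called lower in osteoblasts than in CMP, summed to 7416 and 8265 CPM in CMP, then 5474 and 5847 in OMP, then 1790 and 1857 in osteoblasts. The 13 epidermal genes, 2 of them called lower, summed to 6635 and 6976, 3698 and 4020, and 1523 and 1387 CPM in the same order. Most of these sums was krt4, with means of 5925, 3235 and 1016 CPM. The median log2 change of the epidermal list against CMP was only 0.03 in OMP and -0.34 in osteoblasts, so the sums do not describe the list as a whole. Of the fin mesenchyme genes, 4 were called lower and 1, pah, was called higher in OMP than in CMP (1071 against 416 CPM). The part of such cells in the levels of ephb1 and ephb3a was not tested.

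Ephb3a, a receptor of the EphB3 type known in mouse from the palate and the gut epithelium, stood at 54.8 and 50.7 CPM in CMP, then 37.8 and 18.8 in OMP, then 19.0 and 14.9 in osteoblasts. CMP lay above both other groups, and the lowest OMP library lay within the range of osteoblasts. Ephb3a fell in osteoblasts against CMP (log2 change -1.64 with SE 0.42, edgeR adjusted p = 0.0309), and the call was lost without CMP library 1 (adjusted p = 0.138), CMP library 2 (0.120), osteoblast library 1 (0.0881) or osteoblast library 2 (0.214). In OMP against CMP it differed by -0.92 (SE 0.40, edgeR adjusted p = 0.442). The symbols ephb3 and ephb3b are separate genes in the table, with 290 and 147 reads, and neither was called. Ephb3 has no entry in a newer RefSeq gene table, and how reads were divided between these 2 symbols is uncertain.

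Ephb2b, of the EphB2 type, stood at 45.9 and 27.8 CPM in CMP, then 92.2 and 52.0 in OMP, then 29.4 and 14.7 in osteoblasts. Both OMP libraries lay above all others, and the difference between osteoblasts and OMP was -1.72 (SE 0.47, edgeR adjusted p = 0.0512). It just missed the threshold there, and was called by DESeq2, with no filter on low counts and without OMP library 2 or osteoblast library 1. Against CMP, ephb2b differed by 0.97 in OMP (SE 0.44, edgeR adjusted p = 0.488).

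The EphB4 genes, whose mammalian counterpart is the osteoblast partner of ephrin-B2 in mouse bone, were called in no comparison (edgeR; each unadjusted p was above 0.05 and DESeq2 called neither). Ephb4a stood at 95.8 and 42.8 CPM in CMP, then 75.2 and 35.5 in OMP, then 63.1 and 26.1 in osteoblasts. The 2 libraries of a group lay further apart than the group means, and the fitted difference of osteoblasts from CMP was -0.64 (SE 0.54, edgeR adjusted p = 0.599). Ephb4b, which had the highest mean level per kilobase among EphB genes, stood at 83.5 and 33.3 CPM in CMP, then 38.3 and 33.8 in OMP, then 55.6 and 39.0 in osteoblasts. Its differences were -0.69 in OMP against CMP (SE 0.44), 0.39 in osteoblasts against OMP (SE 0.45) and -0.30 in osteoblasts against CMP (SE 0.44), with edgeR adjusted p of 0.726, 0.786 and 0.791. Ephb2a had 3 reads and ephb6, a receptor without kinase activity, 19 reads in all, and neither was tested.

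Because the EphB4 and efnb2a genes are also vascular in zebrafish embryos, endothelial markers are given beside them. Of 12 listed genes in the table, cdh5, tie1 and flt1 had 0 reads in every library, and the summed level of the list was 37.8 and 32.3 CPM in CMP, then 41.3 and 23.4 in OMP, then 37.0 and 21.8 in osteoblasts. Of these, fli1a alone passed the filter, at 29.9 CPM ± 0.570 in CMP and 28.4 ± 10.2 in OMP. Of 12 nerve and glia genes, elavl3, snap25a and plp1a had 0 reads, and the list summed to 20.5 and 38.1 CPM in CMP, then 19.4 and 31.1 in OMP, then 7.53 and 14.4 in osteoblasts. Most of the CMP and OMP sums was gfap, with means of 23.1 and 17.6 CPM, beside 4.21 in osteoblasts. Over all libraries the summed level was 22.7 to 70.7 CPM for leukocyte genes, 186 to 394 for osteoclast genes with dcstamp at 0, 4.35 to 28.5 for pigment cell genes, 0.327 to 1.92 for muscle genes and 0.982 to 13.7 for erythrocyte genes. The osteoclast sums were mostly ctsk, the only gene of that list to pass the filter. Its group means ran from 197 CPM (osteoblasts) to 348 CPM (OMP), so these sums do not describe the list as a whole. Of 14 osteoblast genes, 13 were called higher in osteoblasts than in CMP, and of 4 cartilage genes tested, 1 was higher and 2 lower. The part of any of these cells in the ephrin and Eph levels was not tested.

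Summed over each class, the balance of receptors and that of ligands differed between groups. The 10 EphA genes summed to 31.0 and 19.3 CPM per kilobase in CMP, then 47.4 and 38.1 in OMP, then 78.8 and 54.8 in osteoblasts. The 9 EphB genes summed to 82.0 and 43.9 in CMP, then 61.3 and 35.4 in OMP, then 48.2 and 26.4 in osteoblasts. EphA sums did not overlap between groups, while EphB sums overlapped between all of them.

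Within a library, where no scaling between libraries enters, the EphA sum divided by the EphB sum was 0.379 and 0.439 in CMP, then 0.773 and 1.08 in OMP, then 1.63 and 2.08 in osteoblasts. The ratio had no overlap between groups and ran from CMP over OMP to osteoblasts. Without epha2b and ephb4b, the member of each class with the highest mean level, it was 0.343 and 0.352, then 0.715 and 1.39, then 1.72 and 2.70. For the ligands, the ephrin-B sum divided by the ephrin-A sum was 0.230 and 0.173 in CMP, then 0.399 and 0.490 in OMP, then 0.547 and 0.834 in osteoblasts. These ratios are given without a test, since they are scores over genes chosen with earlier results known. Ligands exceeded receptors in sum in every library, 1.32 to 2.67 times, with no order of groups. This excess rested largely on efna1b, which made up 63.5% to 76.0% of the ephrin-A sum of a library. It therefore does not describe the ligands as a whole.

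**Figure D4:**
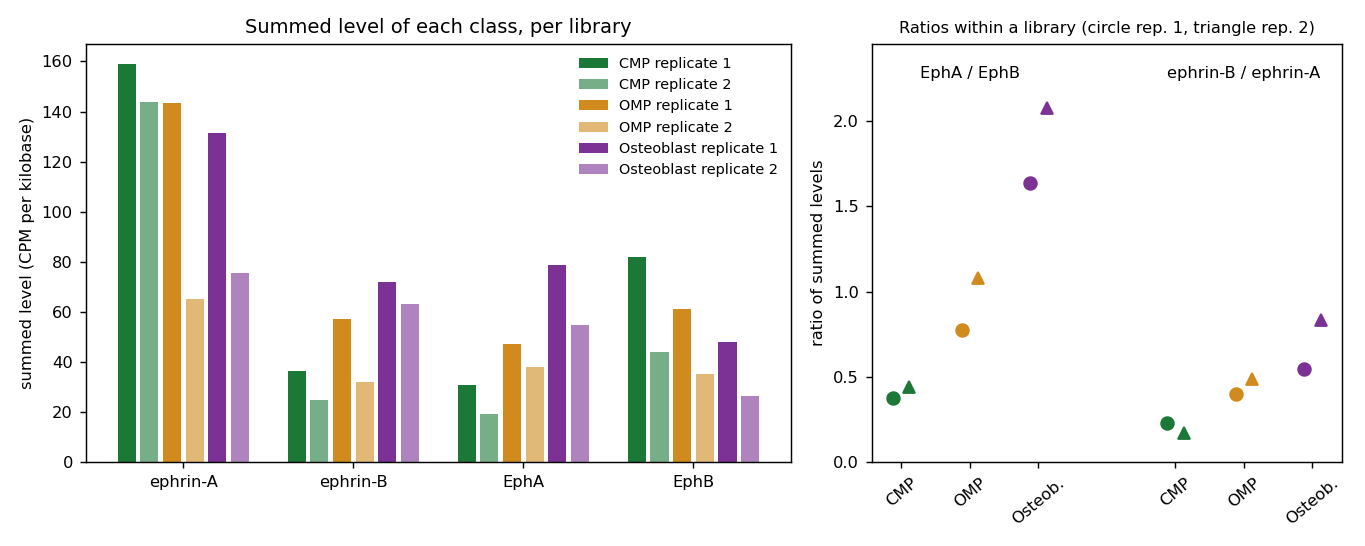
Left, summed level of ephrin-A, ephrin-B, EphA and EphB genes in each library (CPM per kilobase, bars from 0). Right, the EphA sum over the EphB sum and the ephrin-B sum over the ephrin-A sum in each library (circles replicate 1, triangles replicate 2), where the first ratio is 0.379 and 0.439 in CMP and 1.63 and 2.08 in osteoblasts.

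Genes known to act downstream of Eph receptors and ephrins were taken from lists of adaptors and kinases (24 in the table, 22 tested), of PDZ proteins and other partners of ephrin-B ligands (14 in the table, 9 tested) and of proteases, phosphatases and turnover genes (12 in the table, all tested). In OMP against CMP, edgeR called 0 genes of each list, where 3, 0 and 2 had an unadjusted p under 0.05 and DESeq2 called 1, 0 and 0. The median log2 change of the lists was 0.03, 0.02 and 0.15 there, beside 0.02 over all genes. In osteoblasts against OMP, 2 adaptor and kinase genes and 1 phosphatase gene were higher and 1 PDZ gene was lower, with list medians of -0.01, -0.31 and -0.15 beside -0.03 over all genes. Against CMP the counts were the same in each list, with medians of -0.22, -0.33 and 0.27 beside -0.02. Of all genes, 8.11% and 10.6% were called in the comparisons of osteoblasts with OMP and with CMP. The calls of 2 of 22, 1 of 9 and 1 of 12 tested list genes were thus near the share of genes in general.

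Of the adaptors and kinases, fyna, a Src-family kinase that acts below ephrins and Ephs, stood at 59.4 CPM ± 28.1 in osteoblasts, 18.0 ± 0.453 in OMP and 5.21 ± 2.63 in CMP (SD, n = 2). Fyna rose in osteoblasts over CMP (log2 change 3.55 with SE 0.51, edgeR adjusted p = 0.00136) and over OMP (1.73, SE 0.45, edgeR adjusted p = 0.0444). The change over CMP was 4.15 without CMP library 1, 3.08 without CMP library 2 and 2.97 without osteoblast library 2. The call over OMP was lost without CMP library 1 (0.0545), CMP library 2 (0.0514), OMP library 1 (0.13), OMP library 2 (0.183) or osteoblast library 2 (0.377), with all transcript rows summed (0.0771) and with the older dispersion estimate (0.0628). The focal adhesion kinase gene ptk2ab stood at 157 CPM ± 0.817 in osteoblasts, 13.7 ± 0.437 in OMP and 37.2 ± 20.8 in CMP. It rose over OMP (3.52, SE 0.44, edgeR adjusted p = 8.11e-04) and over CMP (2.09, SE 0.40, edgeR adjusted p = 0.00777). The change over CMP was 2.82 without CMP library 1 and 1.60 without CMP library 2, where the call was lost.

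The receptor phosphatase gene ptprfb stood at 187 CPM ± 57.9 in osteoblasts, 60.6 ± 33.0 in OMP and 26.3 ± 4.98 in CMP. Ptprfb rose over CMP (2.83, SE 0.44, edgeR adjusted p = 0.00231) and over OMP (1.63, SE 0.42, edgeR adjusted p = 0.0417). The change over OMP was 2.36 without OMP library 1 and 1.15 without OMP library 2. The call over OMP was lost without CMP library 1, CMP library 2, OMP library 2 or osteoblast library 1. It was also lost with only the 4 libraries of these groups (0.0614), with all transcript rows summed (0.0579) and with the older dispersion estimate (0.0571). Grip1 encodes a PDZ protein that binds the tail of ephrin-B ligands in mammals. Its mean was 0.327 CPM ± 0.463 in osteoblasts, under the 0.982 and 0.687 CPM that 3 reads would be in their libraries. Grip1 stood at 11.7 CPM ± 1.96 in OMP and 8.72 ± 1.40 in CMP. It fell in osteoblasts against OMP (edgeR adjusted p = 0.00543) and CMP (0.00825), and both calls were lost without osteoblast library 2 (0.0596 and 0.0868).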

How the data were processed

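RNA-seq reads of 6 libraries, 2 per group, were analysed from 1 table of raw counts per RefSeq transcript that the authors deposited. HISAT2 2.2.1, featureCounts 2.0.3 and build GRCz11 are named in the submitters' processing notes, whereas no strand setting is stated there, and overlapping or antisense genes cannot be told apart. The authors also deposited transcript lengths in bases. A further 12 columns of normalised values were not used.

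Per gene the row with the most reads was kept (31 members from 72 rows). For 7 members rows tied, and the first in the table was taken, which affects the length used for levels per kilobase. Of 6 transgene rows, 2 had empty cells and were left out. Names of 30 member symbols were found in a RefSeq table of assembly GRCz12tu, whose coordinates are not printed.

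R 4.3.3 and edgeR 4.0.16 served for the tests of the counts (TMM, filterByExpr, quasi-likelihood), with a single model over the 6 libraries, group as its term, 3 residual degrees of freedom and a biological coefficient of variation of 0.377. Tests were two-sided, with Benjamini-Hochberg adjustment over 13399 genes.

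The main setting uses the bias-adjusted deviance (legacy = FALSE) and was not fixed in advance. The first fit used the package default, the older dispersion estimate, which called 189, 983 and 1280 genes and 2, 1 and 5 members in OMP against CMP, osteoblasts against OMP and osteoblasts against CMP. Because these counts differed from an earlier analysis of the same table, 8 combinations of options and 6 forms of design and dispersion, 1 of them a repeat, were compared by their numbers of calls. Over these fits 2, 1 to 3 and 5 to 7 members were called. A setting that gave the earlier count in osteoblasts against OMP was taken, and it called 253, 1087 and 1424 genes and 2, 2 and 7 members. The earlier count in OMP against CMP was not matched by any of them. The default is kept as an alternative added after the data were seen. DESeq2 1.42.0 was another alternative. Each SE was obtained from the log2 change and its F statistic. The fit was checked on simulated counts. These had a smaller spread than the data and no shift between replicate numbers, so the check does not cover those features. Intervals are exact binomial and, like floors of 3 reads, cover counting error only, since reads carry no molecular identifiers.

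Values in every library are given for members called in any comparison, the member with the highest mean level per kilobase in each class, and efnb2a, ephb4a and ephb4b. Efnb2b, efnb3a and ephb2b were singled out after their values were seen. From the downstream lists, up to 6 called genes per comparison by smallest p are named, and 1 of the lists is not reported here. The members, the 16 gene lists (190 of 197 entries in the table) and the rule were chosen with earlier results of these data known.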

Additional observations from a re-analysis of the deposited data

How the results depend on the processing

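RLE size factors changed no member call, and the 12 class sums moved by less than 1 SD. Sums of all transcript rows left 1 member called in OMP against CMP and 0 in osteoblasts against OMP. Efnb2a, epha4b and ephb1 have 1 row each, so their own counts were unchanged by the sums. The calls they lost there came with changes in the rest of the fit, in which 14417 genes were tested. With only the groups compared, or with the older dispersion estimate, chosen as an alternative after the data were seen, 1 was called in osteoblasts against OMP. DESeq2 and the fit with no filter on low counts called 5 and 4 members in osteoblasts against OMP. Of 23299 genes they called 5.25% and 5.24% in that comparison, beside 8.11% of 13399 genes in the main fit. In OMP against CMP they called 401 and 394 genes, against 253 in the main fit. Leaving out each library in turn gave 0 to 2, 1 to 4 and 2 to 8 members and 12 to 286, 602 to 942 and 765 to 1473 genes in OMP against CMP, osteoblasts against OMP and osteoblasts against CMP.

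Levels per kilobase were not run on summed rows, which have no single length. With the replicate block, 5, 7 and 11 members and 817, 1903 and 2421 genes were called in the same order. Efnb2b, epha3 and ephb2b were added in OMP against CMP, efnb2a, epha2a, epha2b, epha4a and ephb2b in osteoblasts against OMP, and efna1b, efnb1, efnb2b and epha2b in osteoblasts against CMP. The labels do not say that equal numbers mark a shared origin. Deviations of same-numbered libraries from their group means correlated at 0.337, 0.296 and 0.382 over 13399 genes, and with 2 numbers per group this is a hint from the data. In the comparison in which a member was called, its log2 change kept its sign under the 13 alternatives.

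Differences that were not called changed sign in 29 instances, none of them called on either side. Over the libraries left out in turn, the log2 change in OMP against CMP was -1.58 to 0.12 for efnb1, -0.034 to 2.34 for efnb2a, -0.67 to 0.65 for epha4a, -0.21 to 0.29 for efnb3b, -1.06 to 0.34 for epha2b, -0.99 to 0.37 for ephb4a and -1.21 to 0.12 for ephb4b. In osteoblasts against OMP it was -0.48 to 0.70 for efna1b, -0.14 to 0.36 for efnb3b, -0.22 to 0.37 for epha3, -0.49 to 0.62 for epha7 and -1.05 to 0.35 for ephb4a. In osteoblasts against CMP it was -0.045 to 0.33 for efnb3b, -1.39 to 0.055 for ephb4a and -0.82 to 0.51 for ephb4b. Osteoblasts against OMP also gave -0.013 for epha3 with no filter and -0.015 with the block, and for efna1b 0.0040 with RLE factors and 0.025 with the block. The cause was not tested.
 The SE of members with under 100 reads in all was 0.71 to 0.93 (efna3b, efnb3a and epha4l).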

Other observations

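Genes whose product names an ephrin or its receptor but whose symbol is a locus name were outside the rule. The one listed as ephrin-A2-like, LOC100332852, had 30 reads in each CMP library, then 20 and 33 in OMP, then 11 and 14 in osteoblasts. LOC101882343, listed as ephrin type-A receptor 3-like, had 16 reads in all.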
